A study of Homo sapiens with 6 samples.

Results

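The genes described here are 37 genes of mitosis: cyclins and kinases of mitotic entry, checkpoint and kinetochore proteins, spindle motors, and proteins of chromosome separation and cytokinesis. They were taken by gene symbol, by a rule that uses no measured value, and all 37 were found among the 57736 genes of the count table. All 37 also passed the filter on low counts, which left 15421 genes for testing. The cells were AALE, a human line derived from basal cells of the bronchus and immortalised with SV40 genes and telomerase (hTERT). Stable pools carried a lentiviral control vector (3 libraries, control 1 to 3) or a lentiviral vector that overexpresses NRG1, the growth factor neuregulin (3 libraries, NRG1 1 to 3), and every library came from the same medium and kit. Which promoter drives NRG1 was not given in the sources used here. Nothing in the labels says that the 3 libraries of a group came from separate cultures, so p-values reflect the spread of these libraries only, and that spread may be technical. The question of the series was how NRG1 alters gene expression in airway epithelial cells.

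Neuregulin binds ERBB receptors, whose signalling drives many epithelial cells into the cell cycle. The genes of mitosis are transcribed late in the cycle: the MuvB complex, which represses them with the DREAM proteins in resting cells, activates them with the factors MYBL2 and FOXM1 in G2. Because their RNA accumulates in G2 and mitosis, the pooled level of these genes is widely read as a measure of proliferation. In cells with SV40 large T antigen the RB family and p53, which hold these genes down in arrested cells, are bound by the viral protein.

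The promoters of these genes are known for a short element at the start site, the cell cycle genes homology region, usually TTTGAA or TTCGAA, and for CCAAT boxes upstream of it. Promoter windows of 300 bases, from 250 bases before to 50 bases after an annotated start, were read from RefSeq on GRCh38.p14 by gene symbol, and both strands were searched. A window was found for 32 of the 37 genes, 39 windows in all, and AURKA, BIRC5, TTK, UBE2C and TPX2 had none in the table. Of the 15421 genes tested, 10994 had a window by symbol, and the shares below cover only these. TTTGAA or TTCGAA stood in 69.2% of the 39 windows, against 11.8% of the 15939 windows of all genes tested and 16.4% of all 35116 promoter windows. CCAAT stood in 76.9% of the windows of the mitotic genes, against 34.5% of those of all genes tested and 34.6% of all promoter windows, and both elements stood in 56.4%, against 4.71% and 6.38%. A match is a run of letters and not a measured binding site. The 200 bases before the start are shown for 3 genes with both elements and for the first of 2 AURKB windows, since the level of AURKB followed another order over the libraries. Capitals mark the searched motifs, TTTGAA and TTCGAA with the reverse strand TTCAAA of the former, and CCAAT with its reverse strand ATTGG. The motifs do not overlap each other in these sequences.
CDC20, chr1:43358781-43358980, plus strand: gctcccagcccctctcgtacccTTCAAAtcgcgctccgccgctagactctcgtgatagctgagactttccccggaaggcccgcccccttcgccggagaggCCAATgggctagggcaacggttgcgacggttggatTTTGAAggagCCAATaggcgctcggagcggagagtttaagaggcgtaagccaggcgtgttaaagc
CCNB2, chr15:59104946-59105145, plus strand: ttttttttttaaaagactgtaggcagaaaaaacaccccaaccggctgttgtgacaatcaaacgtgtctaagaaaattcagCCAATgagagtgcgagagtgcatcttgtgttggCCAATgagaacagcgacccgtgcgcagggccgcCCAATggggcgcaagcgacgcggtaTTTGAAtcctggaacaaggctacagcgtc
PLK1, chr16:23678689-23678888, plus strand: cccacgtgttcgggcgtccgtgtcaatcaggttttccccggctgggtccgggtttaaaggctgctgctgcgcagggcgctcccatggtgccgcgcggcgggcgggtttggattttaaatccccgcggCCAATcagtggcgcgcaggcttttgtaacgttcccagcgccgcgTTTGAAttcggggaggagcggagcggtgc
AURKB, chr17:8210226-8210425, minus strand: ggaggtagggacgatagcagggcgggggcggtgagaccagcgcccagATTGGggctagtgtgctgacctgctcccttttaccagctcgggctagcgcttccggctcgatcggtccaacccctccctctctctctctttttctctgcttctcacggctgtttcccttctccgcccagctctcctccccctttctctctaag
In both CCNB2 and PLK1 the TTTGAA begins 29 bases before the start, and in CDC20 it begins 65 bases before it, with CCAAT boxes on either side and a further TTCAAA at 178 bases. The AURKB sequence holds a single ATTGG and neither TTTGAA nor TTCGAA. Of the 32 genes with a window, 24 held TTTGAA or TTCGAA in at least 1 window. The other 8 were CCNA2, CCNB1, AURKB, NEK2, PTTG1, CENPE, KIF2C and KIF20A. Among these 8, NRG1 1 was the highest library for every gene except AURKB. A link between these motifs and the order of the libraries was not tested.

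Before the mitotic genes, the targeted gene and the libraries were checked. Levels are given in CPM, which are counts scaled for library size with the TMM method. The NRG1 gene had 11.6, 7.87 and 12.3 CPM in the controls, and in the libraries NRG1 1 to 3 it had 6647, 3854 and 3781 CPM, so its level matched the labels in all 6 libraries. Total expected counts ran from 8612234 to 13207620, and each mitotic gene had at least 149 counts in every library. A pair of libraries lay far from the others of their group. The median absolute log2 difference of a library from the mean of its group mates, over all genes tested, was 0.40 for control 3 and 0.37 for NRG1 1, against 0.20 to 0.28 for the other 4. Of the genes tested, NRG1 1 also had the fewest at 1 CPM or more, 14512 against 14616 to 15022. All 12 markers of airway basal cells were expressed. Their summed level ran from 10961 to 15271 CPM in control and from 7522 to 8808 CPM in NRG1. KRT5 was the largest part of the sum, at 3302 to 6952 CPM in control and 3141 to 3883 CPM in NRG1. The log2 fold change was below 0 for 11 of the 12, from -3.05 (NGFR) to -0.00041 (ITGA6), and 0.087 for TP63. In edgeR 0 of the 12 were called. The 6 epithelial markers summed to 1161 to 1394 CPM in control and to 1392 to 1449 CPM in NRG1. CD3E of leukocytes and CDH5 of endothelium were at 0 in every library. Of 6 endothelial markers 5 were found and 0 passed the filter on low counts. The endothelial sum was 4.08, 2.24 and 3.04 CPM in NRG1 1 to 3 and 1.08 to 2.10 CPM in the controls. Of 6 leukocyte markers 2 passed the filter on low counts and PTPRC was at 0 in the NRG1 libraries; the sum, mostly of CD68 and CD14, was 28.2, 12.7 and 9.57 CPM in NRG1 1 to 3 and 22.2 to 34.1 CPM in the controls. The summed level of 8 fibroblast markers, of which 3 passed the filter, was 22.1 CPM in NRG1 1, 28.2 and 28.9 CPM in NRG1 2 and NRG1 3, and 44.7 to 70.7 CPM in the controls. For 8 markers of secretory and ciliated cells, of which 1 passed the filter, the sum was 3.66 CPM in NRG1 1, 14.6 and 61.8 CPM in NRG1 2 and NRG1 3, and 9.79 to 26.4 CPM in the controls. Their part in the levels of the mitotic genes was not tested.

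In edgeR and DESeq2 fits of all 6 libraries no mitotic gene was called, and the NRG1 libraries fell on both sides of the controls. NRG1 1 held the highest level of the 6 libraries for 36 of the 37 genes, against 21.7% of all genes tested. NRG1 2 and NRG1 3 were both below all 3 controls for 29 of the 37, against 22.2% of all genes. Together the 37 genes took 5948, 5260 and 4217 CPM in control 1 to 3, 9143 CPM in NRG1 1, and 3226 and 3326 CPM in NRG1 2 and NRG1 3. With edgeR's quasi-likelihood test and the Benjamini-Hochberg adjustment across the table, 0 of the 37 genes passed an adjusted p of 0.05, against 0.00648% of all genes tested, which is NRG1 alone. At an unadjusted p under 0.05 there were also 0 of 37, against 11.8% of all genes, and DESeq2 called 0, against 1.36% of all genes. In contrast, limma-voom was fitted to the same 6 libraries with quality weights, which count libraries that stand apart for less. It had all 37 genes below 0 and called 21 lower and 0 higher, against 5.85% of all genes called lower. The weights were estimated from these same libraries, of which control 3 and NRG1 1 lay farthest from their group mates. Its calls are therefore not separate evidence of a decrease. The groups did not overlap for 0 of 37 genes, against 19.6% of all genes tested. In edgeR, fitted log2 fold changes ran from -0.53 for AURKB to 0.61 for CENPE, with a median of -0.0044 against 0.00034 over all genes, and 19 of 37 were below 0. All 37 confidence intervals (95%) held 0, and their ends reached -1.39 (TTK) and 1.66 (CENPE). In bulk RNA a difference in the share of dividing cells and a difference in these RNAs per cell cannot be told apart.

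**Figure D1:**
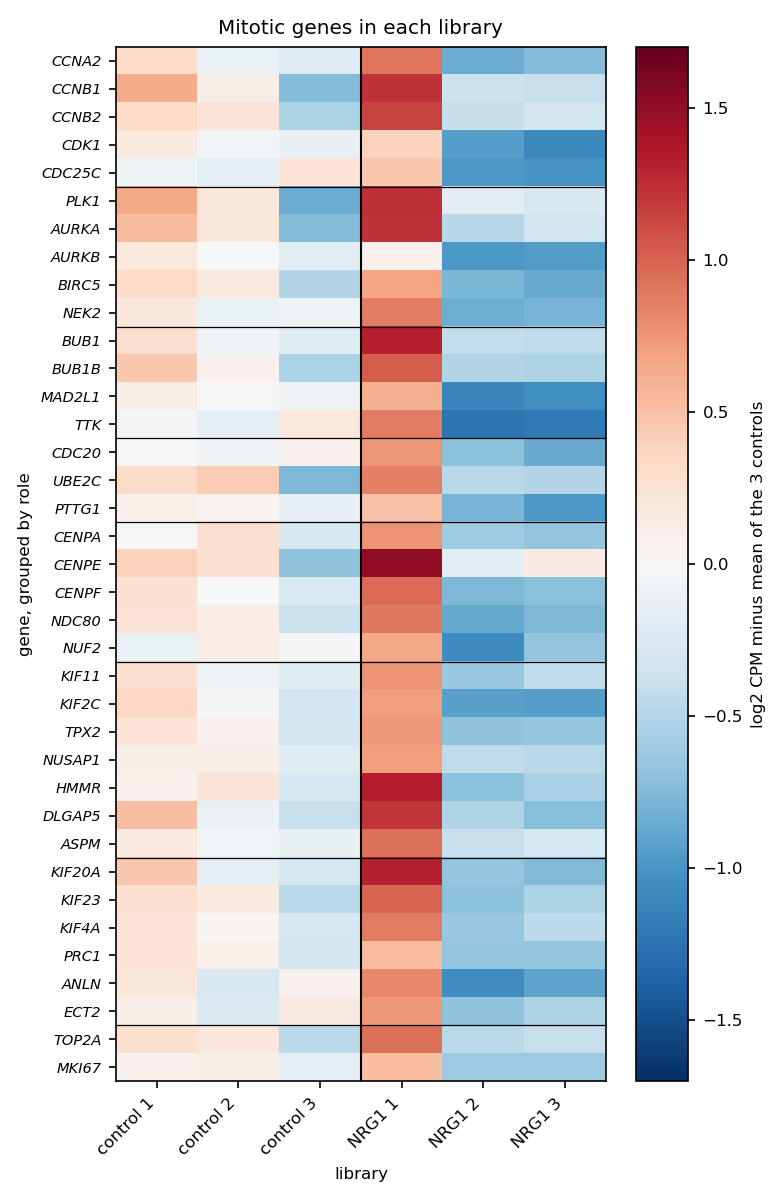
Heat map of the 37 mitotic genes (rows, grouped by role) in the 6 libraries (columns); colour is log2 CPM minus the mean of the 3 controls. The column of NRG1 1 is red throughout, with a median of 0.86, and those of NRG1 2 and NRG1 3 are mostly blue, with medians of -0.68 and -0.66.

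Cyclins A and B and the kinase CDK1 that they activate set off mitosis, and the phosphatase CDC25C removes the inhibitory phosphates of CDK1. CCNB1 (ENSG00000134057), cyclin B1, had 235, 162 and 90.6 CPM in control 1 to 3, against 353, 117 and 115 CPM for NRG1 1 to 3. NRG1 1 was the highest and control 3 the lowest library, with NRG1 2 and NRG1 3 between control 2 and control 3, so the groups overlapped. The log2 fold change was 0.26 (SE 0.49, 95% interval -0.86 to 1.38; adjusted p = 0.843 in edgeR). CDK1 (ENSG00000170312) had 167, 145 and 137 CPM in the controls, against 196, 78.0 and 69.7 CPM in the NRG1 libraries. For CDK1 the controls lay close together, NRG1 1 lay above them, and the other NRG1 libraries were far below them. Its log2 fold change was -0.39 (SE 0.37, 95% interval -1.23 to 0.45; adjusted p = 0.675 in edgeR). CCNA2, CCNB2 and CDC25C had log2 fold changes of -0.0044, 0.28 and -0.35, and in each of the 5 genes NRG1 1 exceeded the mean of NRG1 2 and NRG1 3, by 2.66-fold to 3.26-fold.

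Aurora and Polo kinases build the spindle and correct its attachments. AURKA, the kinase of centrosomes and spindle poles, had 162, 129 and 66.7 CPM in control 1 to 3, against 263, 80.1 and 88.4 CPM for the libraries NRG1 1 to 3. As for CCNB1, control 3 was the lowest of all libraries. The log2 fold change was 0.27 (SE 0.49; adjusted p = 0.839 in edgeR). AURKB (ENSG00000178999), the kinase of the chromosomal passenger complex, had the smallest p of the 37 genes. It had 68.7, 60.3 and 53.3 CPM in the controls, against 64.4, 30.6 and 31.3 CPM for the NRG1 libraries. It was the single member for which NRG1 1 lay inside the control range, and NRG1 2 and NRG1 3 lay well below that range. The log2 fold change was -0.53 (SE 0.30, 95% interval -1.23 to 0.16; adjusted p = 0.495 in edgeR). BIRC5, the survivin subunit of the same complex, was at 161 CPM in NRG1 1, above its 3 controls at 71.0 to 127 CPM. In NRG1 2 and NRG1 3 BIRC5 was at 58.6 and 55.8 CPM, below all 3 controls. Its log2 fold change was -0.18 (SE 0.42). PLK1 was the member with the widest spread among controls on the log2 scale (SD 0.77), at 102, 74.5 and 36.1 CPM, and its log2 fold change was 0.32 (SE 0.48). NEK2, a kinase that separates centrosomes, had a log2 fold change of -0.033 (SE 0.43).

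**Figure D2:**
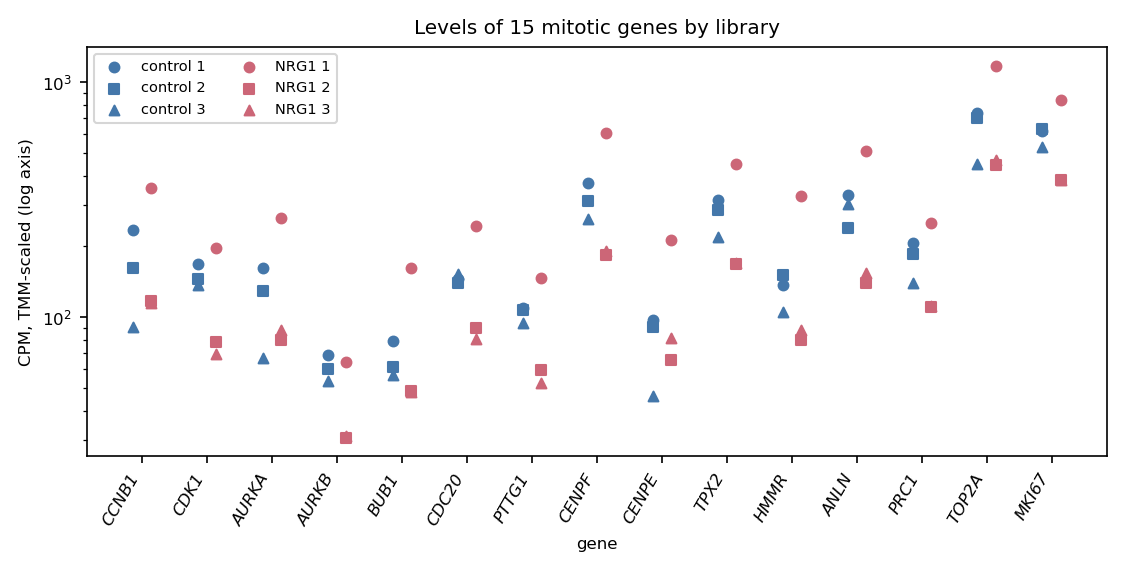
TMM-scaled CPM (log axis) of the 15 mitotic genes given library by library in the text; blue marks are control and red marks NRG1 libraries, with circles, squares and triangles for replicates 1, 2 and 3. The red circle of NRG1 1 is the top mark for every gene shown except AURKB, and the 2 other red marks lie close together.

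The spindle checkpoint delays chromosome separation until every kinetochore is attached. BUB1, a checkpoint kinase at kinetochores, had 78.9, 61.5 and 56.4 CPM in the controls, against 162, 48.4 and 48.2 CPM for the NRG1 libraries. NRG1 1 was more than any control and the 2 others were less than any control. The log2 fold change was 0.39 (SE 0.45; adjusted p = 0.735 in edgeR). MAD2L1, which inhibits the anaphase-promoting complex (APC/C), and the kinase TTK had controls that lay close together, at 68.4 to 78.0 CPM for MAD2L1 and up to 63.2 CPM for TTK. In NRG1 1 to 3 MAD2L1 was at 111, 33.7 and 35.3 CPM and TTK at 103, 23.4 and 24.1 CPM. TTK had the largest distance of NRG1 1 from the other NRG1 libraries of all 37 genes, 4.32-fold. BUB1B, another subunit of the checkpoint complex, had a log2 fold change of 0.13 (SE 0.45).

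CDC20, UBE2C and PTTG1 act at the step that the checkpoint guards: CDC20 activates the APC/C, UBE2C is the conjugating enzyme that brings it ubiquitin, and PTTG1 (securin) holds separase inactive until it is destroyed. CDC20 (ENSG00000117399) had 145, 139 and 153 CPM in control 1 to 3, against 245, 90.0 and 80.7 CPM for the libraries NRG1 1 to 3. Its controls had the smallest spread of the 37 genes (SD 0.068 on the log2 scale), while its NRG1 libraries were 138 ± 92.0 CPM (SD, n = 3) around a control mean of 146 ± 6.92 CPM (SD, n = 3). The log2 fold change was -0.077 (SE 0.39; adjusted p = 0.95 in edgeR). PTTG1 had 110, 107 and 94.2 CPM in the controls, against 146, 59.5 and 52.5 CPM for the NRG1 libraries, a log2 fold change of -0.27 (SE 0.36; adjusted p = 0.777 in edgeR). PTTG1 has near-identical copies, but PTTG2 had 0 and PTTG3P 10.8 expected counts over all 6 libraries. UBE2C had a log2 fold change of 0.020 (SE 0.43), with control 3 at 60.4 CPM against 129 and 138 CPM in the other controls.

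Kinetochore proteins tie the centromere to microtubules. CENPF, a large protein of the outer kinetochore, had 370, 311 and 260 CPM in the controls, against 605, 183 and 191 CPM for the NRG1 libraries, a log2 fold change of 0.055 (SE 0.44; adjusted p = 0.968 in edgeR). CENPE (ENSG00000138778), a kinesin that carries chromosomes to the spindle equator, had 97.5, 90.9 and 46.2 CPM in the controls, against 212, 65.6 and 81.5 CPM for the NRG1 libraries. It had the highest fold change of the 37 genes, with a log2 value of 0.61 (SE 0.46, 95% interval -0.44 to 1.66; adjusted p = 0.602 in edgeR). Both NRG1 2 and NRG1 3 lay above control 3 and below the 2 other controls. The microtubule-binding subunits NDC80 and NUF2, and CENPA, the histone variant of centromeres, had log2 fold changes of -0.032, -0.18 and -0.031. NUF2 was the member for which NRG1 2 and NRG1 3 differed most as a ratio (0.755), at 28.6 and 37.9 CPM.

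Of the 7 spindle genes, TPX2, an activator of AURKA that nucleates microtubules, had 316, 284 and 218 CPM in control 1 to 3, against 448, 168 and 170 CPM for the libraries NRG1 1 to 3. HMMR, a microtubule-binding protein of spindle poles, had 136, 150 and 105 CPM in the controls, against 327, 79.7 and 88.3 CPM for the NRG1 libraries. All 7 genes had NRG1 1 above and NRG1 2 and NRG1 3 below every control, so within this role the 3 NRG1 libraries never shared a side. Log2 fold changes were -0.059 (SE 0.38) for TPX2 and 0.33 (SE 0.50) for HMMR, with adjusted p = 0.96 and 0.802 in edgeR. The motors KIF11 and KIF2C, and NUSAP1, DLGAP5 and ASPM, which organise spindle microtubules, lay between -0.19 and 0.22.

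The 6 genes of the spindle midzone and cytokinesis followed the same order. ANLN, a scaffold of the contractile ring, had 332, 239 and 304 CPM in the controls, against 511, 139 and 154 CPM for the NRG1 libraries. PRC1, which bundles midzone microtubules, had 206, 185 and 140 CPM in the controls, against 251, 110 and 111 CPM for the NRG1 libraries. Again every member had NRG1 1 above and NRG1 2 and NRG1 3 below all controls. The log2 fold changes were -0.12 (SE 0.46) for ANLN and -0.17 (SE 0.33) for PRC1, with adjusted p = 0.932 and 0.848 in edgeR. The midzone kinesins KIF20A, KIF23 and KIF4A and the RhoA activator ECT2 lay between -0.022 and 0.26. KIF4A has a near-identical copy, KIF4B, which was listed at 4.50 to 22.6 expected counts against at least 611 for KIF4A.

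TOP2A, the topoisomerase that untangles chromosomes, and MKI67, the Ki-67 protein that coats them, are the usual marks of cycling cells. TOP2A had 738, 700 and 446 CPM in control 1 to 3, against 1174, 445 and 467 CPM for the libraries NRG1 1 to 3, a log2 fold change of 0.15 (SE 0.38; adjusted p = 0.897 in edgeR). MKI67 (ENSG00000148773) had 619, 630 and 528 CPM in the controls, against 842, 384 and 385 CPM for the NRG1 libraries, a log2 fold change of -0.14 (SE 0.30; adjusted p = 0.867 in edgeR). NRG1 2 was just below control 3 for TOP2A and NRG1 3 just above it, while for MKI67 the groups were split as in most members. Per kilobase of the longest coding transcript in GENCODE 29, mean levels ran from 11.5 CPM for CENPE to 121 CPM for UBE2C, with TOP2A at 115 and MKI67 at 44.5 CPM.

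The mitotic genes spread widely inside the NRG1 group. Their median SD of log2 CPM was 0.88 among the 3 NRG1 libraries, against 0.25 over all genes tested, and 0.27 among the 3 controls, against 0.31 over all genes. In all 37 genes the NRG1 libraries spread more than the controls. NRG1 1 exceeded the mean of NRG1 2 and NRG1 3 at least 2-fold in 37 of 37 genes, against 4.07% of all genes tested. The median excess was 2.86-fold, against 1.01-fold over all genes, and it ran from 2.07-fold (AURKB) to 4.32-fold (TTK). The ratio of NRG1 2 to NRG1 3 had a median of 0.980 and ran from 0.755 (NUF2) to 1.16 (DLGAP5), so these libraries lay close together. By role the median excess was 3.27-fold for checkpoint genes, 2.89-fold for kinetochore genes, 2.87-fold for midzone genes and 2.84-fold for cyclins and their regulators. It was 2.81-fold for AURKA, AURKB, PLK1, NEK2 and BIRC5, 2.65-fold for spindle genes, 2.61-fold for APC/C genes, and 2.38-fold for TOP2A and MKI67. Among genes with a promoter window it was 2.81-fold for the 24 with TTTGAA or TTCGAA (2.19-fold to 3.89-fold) and 3.09-fold for the 8 without (2.07-fold to 4.05-fold), ranges that overlap. These comparisons within a group are descriptions and were not tested. Beside them, NRG1 itself was at its highest level, 6647 CPM, in NRG1 1; its part in the spread was not tested.

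**Figure D3:**
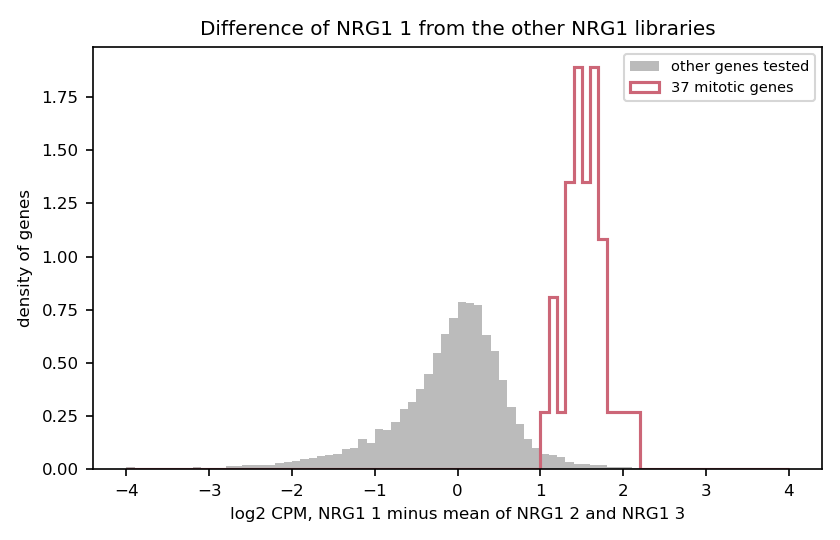
Density of genes by log2 CPM in NRG1 1 minus the mean of NRG1 2 and NRG1 3, for the 37 mitotic genes (red line) and the other genes tested (grey; values beyond 4 drawn at 4). All 37 mitotic genes lie at 1 or more, at a median of 1.52, while the median of all genes tested is 0.011.

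Control 3 split the members in another way. It was the lowest control for 30 of 37 genes, against 40.4% of all genes tested, and its median log2 difference from the mean of control 1 and control 2 was -0.41. For CCNB1, PLK1, AURKA, UBE2C and CENPE it was at or below 0.5 of the level of the 2 other controls, with the lowest log2 difference, -1.27, for PLK1. These 5, with CCNB2 and BUB1B, were the 7 genes for which control 3 was the lowest of all 6 libraries. For CDC25C, TTK, CDC20, ANLN and ECT2 control 3 was above the mean of the 2 others, by up to 0.34 on the log2 scale for CDC25C. The positive fold changes of CENPE, PLK1, CCNB2, AURKA and CCNB1 in the fit of 6 libraries stood beside low values in control 3 as well as high values in NRG1 1.

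The direction of the whole group turned on which libraries were counted. Without NRG1 1, all 37 genes had a log2 fold change below 0, against 51.6% of all genes, with a median of -0.67; 26 had an unadjusted p under 0.05, all lower, against 8.87% of all genes with such a p and lower. None passed the adjusted threshold in edgeR (0 of 37, against 0.0648% of all genes called lower), and the smallest adjusted p was 0.0518, for MAD2L1. Without NRG1 2 or without NRG1 3, in contrast, 5 genes were below 0 and the medians were 0.25 and 0.24. Without both control 3 and NRG1 1, the libraries that stood apart over all genes, edgeR called 33 of 37 genes lower and 0 higher, against 4.79% of all genes called lower and 5.04% called higher. The 6 members with the largest decreases in that fit were TTK, which fell by 1.14 on the log2 scale (adjusted p = 0.00445 in edgeR), MAD2L1, which fell by 1.13 (adjusted p = 0.00377), KIF2C, which fell by 1.11 (adjusted p = 0.0067), CDK1, which fell by 1.08 (adjusted p = 0.00465), BIRC5, which fell by 1.07 (adjusted p = 0.00399), and AURKB, which fell by 1.06 (adjusted p = 0.00536). The 4 genes not called were BUB1, CENPE, ASPM and ECT2, with adjusted p from 0.0527 to 0.131 in edgeR. This comparison of 2 against 2 libraries leaves out the NRG1 library that lay above all controls for 36 of these genes, and leaving out distant libraries lowers the spread, so its p-values are too small by an unknown amount.

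**Figure D4:**
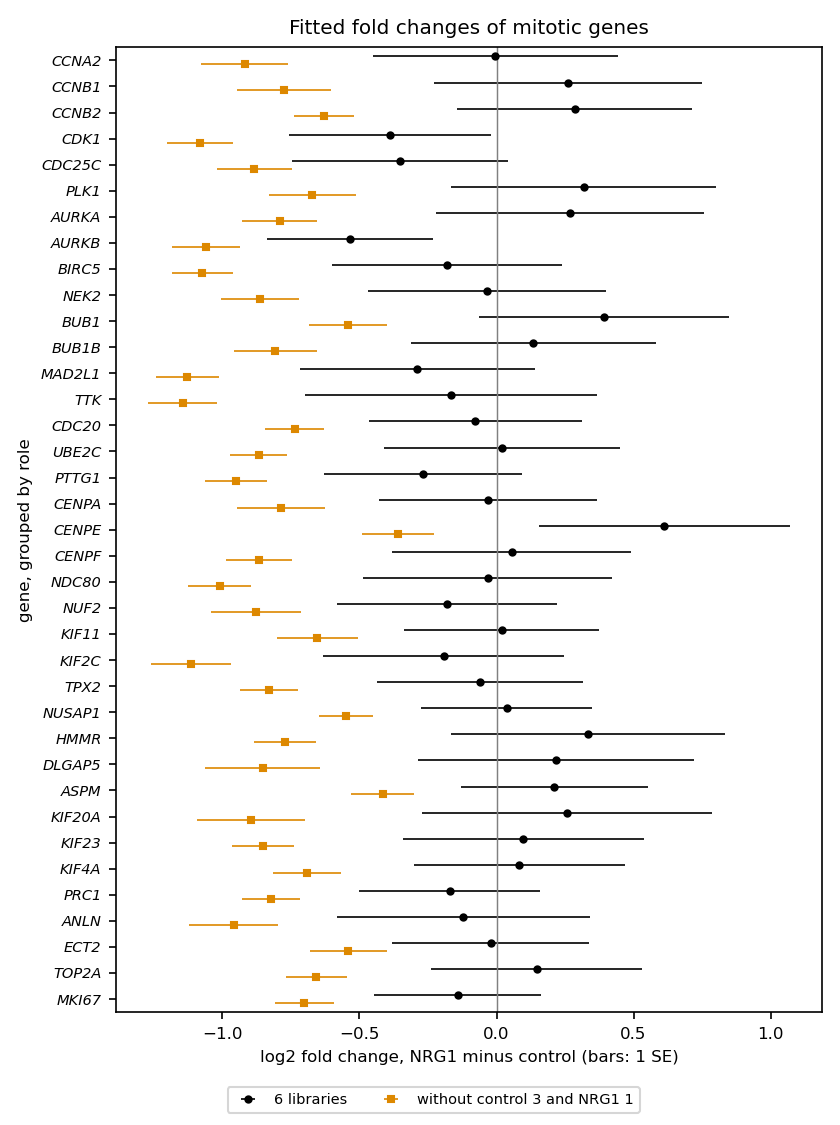
Fitted log2 fold change (NRG1 minus control) of each mitotic gene, with bars of 1 SE, from all 6 libraries (black) and without control 3 and NRG1 1 (orange). Black points lie on both sides of 0, from -0.53 to 0.61, and all orange points lie below 0, from -1.14 to -0.36.

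Other genes of mitosis, 128 in 6 lists and all of them tested, showed how far the pattern reached. In the fit of 6 libraries 0 of the 128 passed edgeR's test over all genes; at an unadjusted p under 0.05 there were 10 lower, against 6.72% of all genes, and 2 higher, the median log2 fold change was -0.089, and DESeq2 called 0. The order of NRG1 1 above and NRG1 2 and NRG1 3 below all controls was found in 28 of the 37 members, in 49 of these 128 genes, and in 3.94% of all genes tested. It was most frequent among spindle and cytokinesis genes (21 of 30) and condensin and cohesin genes (10 of 17). It was found in 2 of 20 subunits and regulators of the APC/C, 2 of 14 genes of mitotic entry and 1 of 11 transcription regulators. Among centromere and kinetochore genes it was 13 of 36. Without control 3 and NRG1 1, 59 of the 128 were called lower and 0 higher, against 4.79% and 5.04% of all genes tested. These calls carry the same limit as those of the 37 members in that fit.

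Named by the smallest p in each list, the regulators were led by MYBL2, with 183, 284 and 280 CPM in control 1 to 3, against 205, 110 and 103 CPM for the libraries NRG1 1 to 3 (log2 fold change -0.84, SE 0.30; adjusted p = 0.369 in edgeR), and by LIN37, a MuvB subunit, at a log2 fold change of -1.09 (SE 0.44). For MYBL2, unlike most members, NRG1 1 lay inside the control range. FOXM1, named for its role and outside that rule, was at 187 CPM in NRG1 1, just above controls at 151 to 180 CPM, while NRG1 2 had 85.7 and NRG1 3 had 82.6 CPM. Among entry genes CDC25A, a phosphatase of CDKs, stood at -1.06 (SE 0.37) on the log2 scale and MASTL, the Greatwall kinase, at -0.94 (SE 0.34), with control 3 as their highest library. ANAPC1 and ANAPC16, subunits of the APC/C, stood at 0.50 (SE 0.17) and 0.55 (SE 0.23), and for both every NRG1 library was above every control. Of the 128 genes, 8 had all NRG1 libraries above all controls and 7 had them all below, CDC25A, CENPP and SMC1A among the latter. Over all genes tested the groups did not overlap for 19.6%. CENPP and MIS12 of the kinetochore were at -0.60 (SE 0.20) and -0.54 (SE 0.22), and SMC1A of cohesin and NCAPD3 of condensin at -0.34 (SE 0.14) and -0.45 (SE 0.20). KIF18B and STIL led the spindle list at -0.67 (SE 0.31) and -0.73 (SE 0.43). Adjusted p in edgeR ran from 0.358 for ANAPC1 to 0.533 for FOXM1, so none of the genes named here passed.

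In 29 tested genes of the G1/S transition and DNA replication, the median log2 level over the control mean was 0.037 for NRG1 1, between the controls at -0.13 to 0.18, and -0.45 and -0.43 in NRG1 2 and NRG1 3. For the 37 mitotic genes the same medians were 0.86, -0.68 and -0.66, with controls from -0.27 to 0.24. The excess of NRG1 1 over the other NRG1 libraries was 1.37-fold in the median G1/S gene and 2.86-fold in the median mitotic gene, and control 3 was the highest control for the G1/S list and the lowest for the mitotic genes. E2F1 and GINS4 led the G1/S list, at -0.70 (SE 0.20) and -1.09 (SE 0.33) on the log2 scale, and the smallest adjusted p of the list was 0.332 in edgeR, for E2F1. At an unadjusted p under 0.05, 8 of the 29 were lower (6.72% of all genes), and 6 had all NRG1 libraries below all controls (10.2% of all genes).

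**Figure D5:**
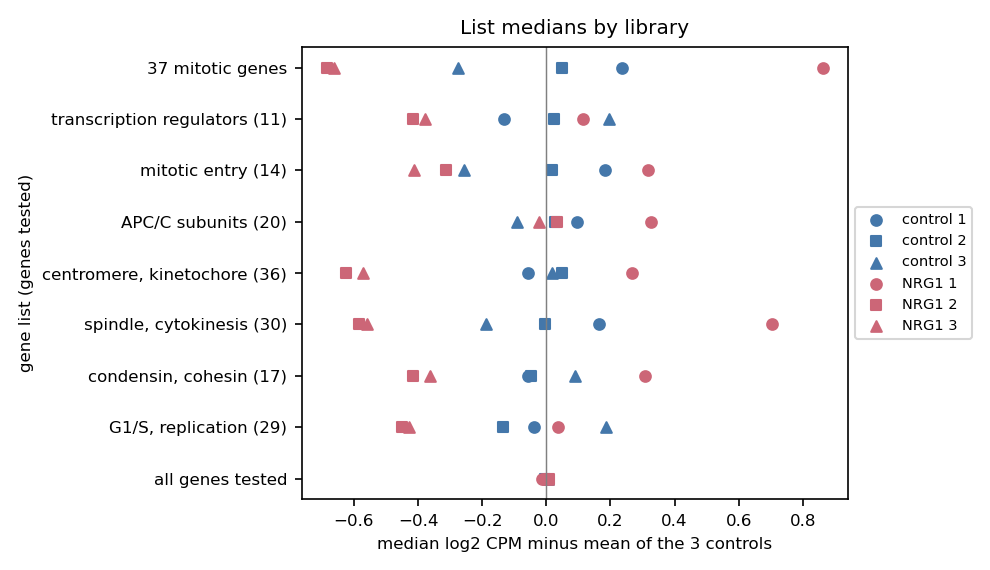
Median log2 CPM relative to the mean of the 3 controls, by library, for the mitotic genes, the lists of other mitosis genes, G1/S genes and all genes tested (number of genes in brackets). The circle of NRG1 1 lies farthest right for the mitotic genes, at 0.86, and close to 0 for the G1/S list, at 0.037, while NRG1 2 and NRG1 3 lie left of 0 in both.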

How the data were processed

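PolyA RNA was sequenced from 3 control and 3 NRG1 libraries, grouped by title. Expected counts (estimated counts per gene, deposited by the authors without normalization) were analysed. Tools named in the submitters' processing notes, without roles, are MultiQC 0.9, FastQC 0.11.3, RSEM 1.3.0 and STAR 2.5.3a, with the build hg19; gene models and strand of counting were not given in the sources used here. A deposited log2 table of 14759 genes, all 37 members included, equalled log2 CPM recomputed from those genes' counts (TMM, prior count 0.25) within 1e-09.

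Counts were rounded. The main test was edgeR's (version 4.0.16, R 4.3.3) after TMM scaling and filterByExpr (15421 genes): the quasi-likelihood test of NRG1 against control with no covariate, and Benjamini-Hochberg adjustment over all genes tested. Levels are TMM-scaled CPM; library differences use log2(CPM + 0.25). Ensembl identifiers were given symbols from a name table. Lengths came from GENCODE 29, matched on identifiers. Promoter letters came from RefSeq on GRCh38.p14, a build other than hg19, and were matched by symbol only.

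The members, lists, rules and settings were chosen with earlier results of these data known. All 37 members are named; in each role the gene with the highest mean CPM and the gene with the smallest p are given by library, and up to 2 genes of each other list by smallest p. Alternatives were DESeq2 1.42.0, 2 other scalings, 2 other filters, limma 3.58.1 (trend, voom, voom with quality weights), the replicate block, leaving out each library, and leaving out control 3 with NRG1 1; edgeR's older dispersion method was chosen after seeing the data. The scripts were tested on simulated data.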

Additional observations from a re-analysis of the deposited data

How the results depend on the processing

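NRG1 passed with the same direction in every setting (log2 fold change 8.49 to 8.95). The count of mitotic genes called, 0, changed in 2 settings: 33 were lower in the 2 against 2 comparison and 21 were lower with limma-voom and a quality weight per library. In these 2 settings 59 and 43 of the other mitosis genes were lower, and 0 and 1 higher. Of all genes, 1 higher and 0 lower in the test of 6 libraries became 92 and 117 with DESeq2, 10 and 11 with no low-count filter, 703 and 902 with quality weights and 777 and 738 in the 2 against 2 comparison. It was 2 higher in limma-trend with either pseudocount and in limma-voom. Leaving out 1 library gave 1 to 27 higher and 0 to 10 lower, the largest of both without NRG1 1. With the replicate number as a block 1 higher and 1 lower were called over all genes and 0 members, with a median log2 fold change of -0.16; same-numbered libraries correlated at 0.021, 0.13 and -0.082 in their deviations, and not every library correlated best with its own number, so the numbers were not treated as pairs. The median of the members was -0.83 in the 2 against 2 comparison, -0.74 with quality weights, -0.16 to -0.18 in the other limma fits, -0.062 with library totals alone and 0.018 with upper-quartile scaling. Members below 0 were 19 in the test of 6 libraries, 28 in limma-trend and limma-voom, and 37 both with quality weights and in the 2 against 2 comparison. Leaving out 1 library gave 5 to 37: 29 without control 3, 37 without NRG1 1, and 5 without NRG1 2 or NRG1 3. The older dispersion method of edgeR, chosen after seeing the data, gave the same counts of calls.

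No single member was called in the test of 6 libraries, and many fold changes took the other sign in an alternative. AURKB, CDC25C, CDK1, MAD2L1 and PTTG1 stayed below 0 in every setting run. With 1 library left out, AURKB ran from -0.97 to -0.35, CDC25C from -1.01 to -0.10 and CDK1 from -1.02 to -0.13. MAD2L1 ran from -1.08 to -0.00091 and PTTG1 from -0.89 to -0.011, so both came close to 0. In the 2 against 2 comparison the members with the other sign were ASPM -0.42, AURKA -0.79, BUB1 -0.54, BUB1B -0.81, CCNB1 -0.78, CCNB2 -0.63, CENPE -0.36, CENPF -0.87, DLGAP5 -0.85, HMMR -0.77, KIF11 -0.65, KIF20A -0.90, KIF23 -0.85, KIF4A -0.69, NUSAP1 -0.55, PLK1 -0.67, TOP2A -0.66, UBE2C -0.87. With quality weights they were ASPM -0.34, AURKA -0.62, BUB1 -0.44, BUB1B -0.68, CCNB1 -0.60, CCNB2 -0.51, CENPE -0.21, CENPF -0.76, DLGAP5 -0.72, HMMR -0.68, KIF11 -0.55, KIF20A -0.75, KIF23 -0.74, KIF4A -0.59, NUSAP1 -0.50, PLK1 -0.51, TOP2A -0.56, UBE2C -0.75. In limma-trend on log2(CPM + 1) they were BUB1B -0.0032, CENPF -0.17, DLGAP5 -0.0055, KIF11 -0.10, KIF20A -0.038, KIF23 -0.080, KIF4A -0.069, NUSAP1 -0.063, UBE2C -0.036, and on log2(CPM + 0.25) BUB1B -0.0046, CENPF -0.17, DLGAP5 -0.0084, KIF11 -0.11, KIF20A -0.041, KIF23 -0.082, KIF4A -0.070, NUSAP1 -0.063, UBE2C -0.036. In limma-voom they were BUB1B -0.030, CENPF -0.18, DLGAP5 -0.046, KIF11 -0.12, KIF20A -0.072, KIF23 -0.10, KIF4A -0.091, NUSAP1 -0.068, UBE2C -0.044, and with the replicate block CENPF -0.17, DLGAP5 -0.00062, KIF11 -0.10, KIF20A -0.039, KIF23 -0.078, KIF4A -0.068, NUSAP1 -0.064, UBE2C -0.030. With library totals alone they were CENPF -0.0057, KIF11 -0.032, NUSAP1 -0.014, UBE2C -0.040, with no low-count filter KIF11 -0.0051, UBE2C -0.0046, with upper-quartile scaling CCNA2 0.018, ECT2 0.014, and with DESeq2 CCNA2 0.0064. Leaving out 1 library at a time, the log2 fold change ranged as follows: ANLN -0.99 to 0.19, ASPM -0.35 to 0.44, AURKA -0.50 to 0.56, BIRC5 -0.86 to 0.078, BUB1 -0.44 to 0.68, BUB1B -0.58 to 0.39, CCNA2 -0.81 to 0.29, CCNB1 -0.49 to 0.62, CCNB2 -0.40 to 0.55, CDC20 -0.77 to 0.20, CENPA -0.66 to 0.22, CENPE -0.088 to 0.91, CENPF -0.75 to 0.34, DLGAP5 -0.67 to 0.54, ECT2 -0.62 to 0.23, HMMR -0.64 to 0.67, KIF11 -0.55 to 0.27, KIF20A -0.75 to 0.59, KIF23 -0.65 to 0.38, KIF2C -0.97 to 0.083, KIF4A -0.56 to 0.35, MKI67 -0.62 to 0.051, NDC80 -0.85 to 0.27, NEK2 -0.82 to 0.25, NUF2 -0.87 to 0.13, NUSAP1 -0.45 to 0.24, PLK1 -0.35 to 0.67, PRC1 -0.68 to 0.031, TOP2A -0.46 to 0.39, TPX2 -0.69 to 0.18, TTK -1.24 to 0.18, UBE2C -0.58 to 0.25. The cause of these turns was not tested beyond the libraries named. Each member had at least 149 counts in every library, and 3 libraries a group limit the precision.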
